A study of Mus musculus with 8 samples.

Results

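The genes that flank Eaf2 on mouse chromosome 16 were compared between spleen T cells of Faslpr mice that had Eaf2 and Faslpr mice that lacked it. The set was a list of 48 genes on either side of Eaf2, without Eaf2 itself, and 47 of them were among the 17384 genes measured. The list was chosen with earlier results of these data known, and it left out 13 genes of the expression table that lie among the listed ones. Upk1b was not analysed here. Of the 47, 40 had enough reads to be tested, out of 12340 genes tested in all. The list ran from Osbpl11, 34 places before Eaf2 on the centromere side, to B4galt4, 26 places beyond it on the telomere side, counting genes of the expression table in chromosome order. It held 25 measured genes on the centromere side and 22 on the telomere side.

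RNA was sequenced from sorted B220+CD3+ spleen cells, 4 libraries of Eaf2-/-Faslpr mice (titled EAF2Faslpr) and 4 of Faslpr mice. Both groups carry the lpr allele of Fas, the gene of a death receptor, whose loss lets T cells that stain for B220 accumulate. The Eaf2-/-Faslpr group differs by loss of Eaf2, a cofactor of the ELL transcription elongation proteins. The sources used here give no age, sex, strain background or design of the Eaf2 allele. Whether each replicate is an animal of its own is not said in the labels, and p-values then reflect just the spread among these samples, which may be technical.

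A neighbourhood on a chromosome is not a pathway. Its genes share position, may share promoters or enhancers, and are inherited together. When an altered allele is moved between mouse strains by crossing, the DNA on either side of it tends to travel with it, so that neighbours of a targeted gene can differ between genotypes in sequence as well as in regulation. In these libraries the loss of Eaf2 and any difference in the DNA linked to its allele cannot be told apart.

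Libraries held from 15563675 to 18640405 estimated reads. Levels are given as CPM, counts scaled to the same library size after TMM scaling, and the floor of 3 reads equals 0.161 to 0.193 CPM depending on the library. Floors and counting intervals cover counting error only. The T cell receptor subunit gene Cd3e was at 557 ± 39.3 against 602 ± 52.9 CPM (SD, n = 4, Eaf2-/-Faslpr first throughout), and the pan-leukocyte gene Ptprc, whose count does not separate the B220 form, at 2312 ± 114 against 1989 ± 311 CPM. Of 14 T cell markers tested, 4 were higher (Cd4, Cd8a, Cd8b1 and Cd2) and 0 were lower. Of all genes tested, 7.14% were higher and 4.96% lower by the same edgeR test. All 17 B cell markers were detected and higher in Eaf2-/-Faslpr cells, with a summed level from 430 to 801 CPM in that group and from 117 to 192 CPM in Faslpr cells. Eaf2-/-Faslpr replicate 3 stood apart in B cell, macrophage and neutrophil transcripts, with neutrophil markers at 131 CPM against between 14.3 and 21.3 CPM in the other 7 libraries. Of 12 macrophage markers 3 were higher, and of 6 neutrophil markers 0 passed by edgeR (5 at an unadjusted p under 0.05, 1 by DESeq2, 0 by limma-voom). Of 5 dendritic cell markers 1 was higher, of 6 plasma cell markers 1 was lower, and of 3 erythroid and platelet markers 0 passed by any of the 3 tools or at an unadjusted p under 0.05. No marker of these lists was at 0 in all libraries.

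Eaf2 itself checked the labels. It was measured at 4.43, 4.2, 4.02 and 6.29 CPM in the Eaf2-/-Faslpr libraries and at 25.7, 24.2, 20.7 and 31.5 CPM in the Faslpr libraries. The groups did not overlap, and the log2 fold change was -2.43 (SE 0.18, adjusted p = 2.9e-05). Reads of Eaf2 remained in every Eaf2-/-Faslpr library, at a mean of 18.5% of the Faslpr level. Their source was not tested. Here and below, adjusted p-values come from the quasi-likelihood test of edgeR, Benjamini-Hochberg adjusted over all genes tested.

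Among the 40 flanking genes tested, 6 were higher in Eaf2-/-Faslpr cells at an adjusted p under 0.05 (Heg1, Cd86, Slc15a2, Iqcb1, Arhgap31 and B4galt4) and 1 was lower (Golgb1). The 7 genes made up 17.5% of those tested, against 12.1% of all genes, so the share that passed was not far from the background. By direction, 15% of the flanking genes were higher against 7.14% of all genes, and 2.5% were lower against 4.96%. A change of at least 4-fold was found in 3 of the 40 (Slc15a2, Arhgap31 and B4galt4), or 7.5%, against 1.65% of all genes. Nothing is read from that share or from the share of higher genes. Arhgap31 and B4galt4 had at most 10 reads in any Faslpr library and entered the test through the Eaf2-/-Faslpr libraries, where they were high. Slc15a2 (9 to 12 reads per Faslpr library) and Cd86 (9 to 24) also needed the Eaf2-/-Faslpr libraries to reach the read filter. The same 7 genes were also those whose CPM values did not overlap between the groups (17.5%, against 17.7% of all genes tested). The median absolute log2 fold change of the 40 genes was 0.125, against 0.144 over all genes tested, so most tested neighbours differed little.

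**Figure D1:**
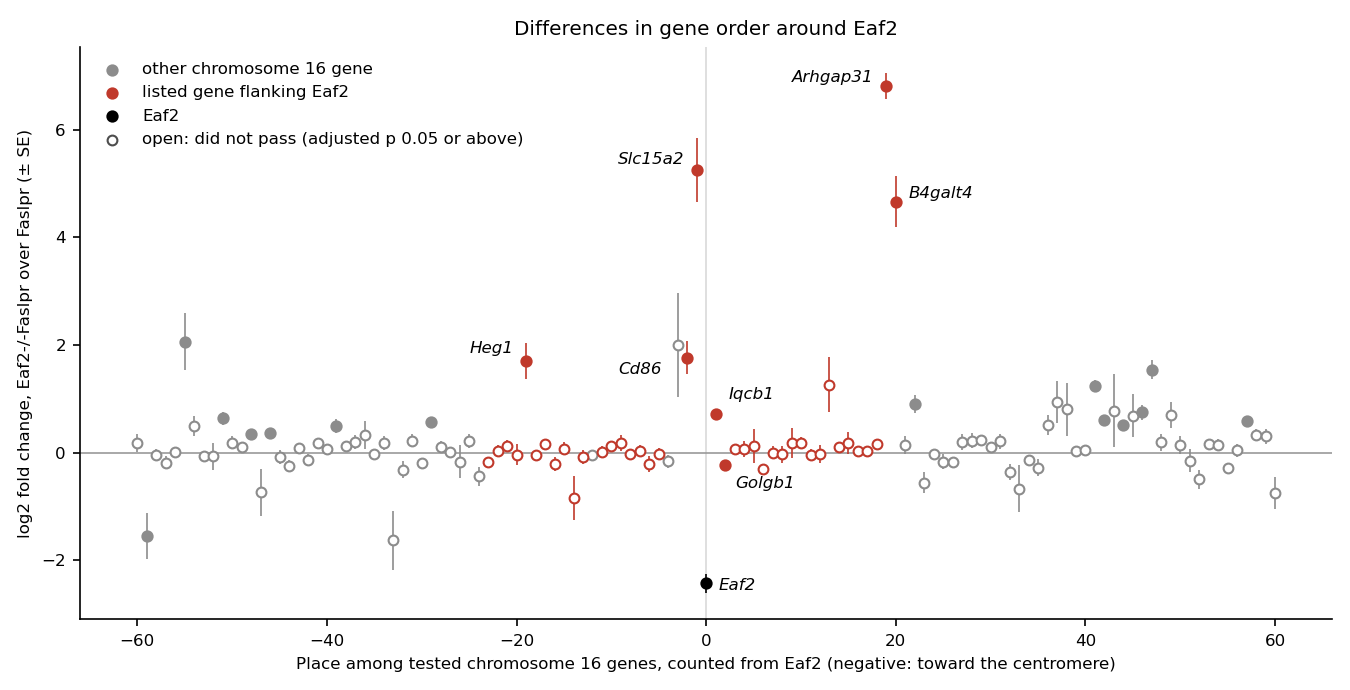
Log2 fold change (Eaf2-/-Faslpr over Faslpr, ± SE, 4 libraries per group) of tested chromosome 16 genes by their place from Eaf2, with genes that passed filled and the others open. Most listed neighbours lie near 0, with Popdc2 (1.26) and Adcy5 (-0.84) off it among those that did not pass, and Slc15a2, Arhgap31 and B4galt4 lie above 4.

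Along the chromosome the differences lay in separate places. Next to Eaf2, 6 consecutive genes of the table did not overlap between the groups: Cd86, Ildr1, Slc15a2, Eaf2, Iqcb1 and Golgb1. This run counts Eaf2 itself, whose loss defines the groups. Without it there were 3 such genes on the centromere side and 2 on the telomere side, and groups did not overlap for 14.1% of all genes of the table. Over the whole table there were 7 runs of at least 5 such genes and 3 of at least 6, and the longest had 7. Beyond Golgb1 came a long stretch from Hcls1 to Tmem39a with no gene that passed, and then Arhgap31 and B4galt4, 25 and 26 places from Eaf2, which passed side by side. On the centromere side no gene between Cd86, 3 places away, and Heg1, 30 places away, passed.

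Slc15a2, Arhgap31 and B4galt4 had few reads in Faslpr cells, 43, 24 and 5 over the 4 libraries. The start regions of Slc15a2 and B4galt4 are shown with that of Iqcb1, which was transcribed in both groups, as the 250 bases before each RefSeq start (build GRCm38.p6, 5′ to 3′ on the gene's strand). They lie at chr16:36784963-36785212 (minus strand) for Slc15a2, chr16:38742009-38742258 (plus strand) for B4galt4 and chr16:36828150-36828399 (plus strand) for Iqcb1. Capitals mark matches to any of the searched motifs.
Slc15a2: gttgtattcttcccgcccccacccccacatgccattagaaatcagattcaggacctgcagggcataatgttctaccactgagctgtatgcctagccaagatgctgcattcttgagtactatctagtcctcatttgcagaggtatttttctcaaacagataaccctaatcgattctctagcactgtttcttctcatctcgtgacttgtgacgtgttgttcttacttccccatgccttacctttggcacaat
B4galt4: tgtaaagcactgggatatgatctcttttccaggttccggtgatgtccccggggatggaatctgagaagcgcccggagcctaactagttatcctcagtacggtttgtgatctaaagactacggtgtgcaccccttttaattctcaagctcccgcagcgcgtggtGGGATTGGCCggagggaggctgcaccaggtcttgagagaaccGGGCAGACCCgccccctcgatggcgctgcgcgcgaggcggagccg
Iqcb1: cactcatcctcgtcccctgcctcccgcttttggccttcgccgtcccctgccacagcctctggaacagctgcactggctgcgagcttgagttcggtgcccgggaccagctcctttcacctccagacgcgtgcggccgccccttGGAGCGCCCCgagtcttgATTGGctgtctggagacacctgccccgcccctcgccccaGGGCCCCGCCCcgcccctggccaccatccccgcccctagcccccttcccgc
Motifs were searched on both strands: the core of the interferon-stimulated response element, TGANTCA (AP-1), a loose NF-kB-like motif, CCAAT and TGACGTCA (CRE). The Slc15a2 window held 0 matches. The B4galt4 window held 2 NF-kB-like matches and 1 CCAAT match, which overlaps one of them, and the Iqcb1 window held 3 and 1. Such matches are common: 45.8% of the 32851 promoter windows in the table held the NF-kB-like motif and 33.8% held CCAAT, against 55.8% and 32.6% of the 43 windows of listed genes. The Slc15a2 window was also the poorest of these 3 in CG dinucleotides, with 4 against 19 in each of the others and a median of 6 over all windows. Entries existed for 38 of the 48 listed genes. Of their windows, 3 held AP-1 letters (6.98%, against 6.75% of all windows) and 1 held the interferon element (2.33%, against 2.98%). The CRE was in 0 of the 43, against 1.55% of all windows.

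Slc15a2 (Entrez gene 57738), the gene next to Eaf2 on the centromere side and on the same strand, encodes PEPT2, a proton-coupled carrier of di- and tripeptides. It was measured at 9.19, 18.7, 51.5 and 13.9 CPM in the Eaf2-/-Faslpr libraries. In the Faslpr libraries it was at 0.688, 0.536, 0.55 and 0.646 CPM. The lowest Eaf2-/-Faslpr library thus lay far above the highest Faslpr library, while the Eaf2-/-Faslpr libraries themselves differed widely, with a coefficient of variation of 82.3%. The log2 fold change was 5.25 (SE 0.59, adjusted p = 0.000432), the 16th largest absolute change of all genes tested, and without Eaf2-/-Faslpr replicate 3 it was 4.51 (adjusted p = 3.48e-05). Replicate 3, the highest, also had the highest summed B cell markers (801 against 430, 452 and 441 CPM in replicates 1, 2 and 4). Its summed macrophage markers were highest too (173 against 92.0, 94.7 and 72.8 CPM). Replicates 1, 2 and 4 were still above every Faslpr library in B cell markers (at most 192 CPM). The part of these transcripts in the Slc15a2 level was not tested. In these bulk samples fewer cells of a type and less RNA per cell cannot be told apart. Of the other SLC15 carriers, 3 of 4 were tested and 0 passed by edgeR, DESeq2 or limma-voom, with 1 at an unadjusted p under 0.05. Slc15a4, the most abundant of them, was at 30.4 ± 1.43 against 24.3 ± 3.74 CPM (adjusted p = 0.101).

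Arhgap31 (Entrez gene 12549) encodes CdGAP, a GTPase-activating protein. Its level was 50.4, 34.4, 35.7 and 34.7 CPM in the Eaf2-/-Faslpr libraries and 0.287, 0.298, 0.55 and 0.215 CPM in the Faslpr libraries. In reads, 2690 fell on the gene in the first group and 24 in the second, a ratio of 113 with an exact (Clopper-Pearson) 95% counting interval from 76.1 to 177. The log2 fold change was 6.81 (SE 0.24, adjusted p = 1.49e-07), the 5th largest absolute change of all genes tested. It stayed between 6.64 and 7.15 in the 8 fits that left out 1 library. Its highest library was replicate 1, and the log2 fold change was 6.85 without Eaf2-/-Faslpr replicate 3. Eaf2-/-Faslpr replicates 1, 2 and 4 also had higher summed B cell markers (430, 452 and 441 CPM) than any Faslpr library (at most 192 CPM). The part of B cell transcripts in the Arhgap31 level was not tested.

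B4galt4 (Entrez gene 56375) lies next to Arhgap31, on the opposite strand, and encodes a galactosyltransferase of the beta-1,4 family that extends sugar chains of glycoproteins and glycolipids. It was a low gene in both groups, at 2.31, 1.75, 2.15 and 1.6 CPM in the Eaf2-/-Faslpr libraries and 0.0573, 0.0, 0.165 and 0.0538 CPM in the Faslpr libraries. The Faslpr libraries held 5 reads of it in all, against 136, a ratio of 27.5 with an exact 95% counting interval from 11.5 to 86.2. Every Faslpr library was thus at or under the floor of 3 reads, and every Eaf2-/-Faslpr library was above it. The fitted log2 fold change was 4.66 (SE 0.47, adjusted p = 0.000242), and 5.44 without Faslpr replicate 3, which held most of the Faslpr reads. The stricter filter, a mean of at least 2 CPM, left B4galt4 out. The next gene of the table, Igsf11, had too few reads to be tested, between 3.09 and 6.11 reads per Eaf2-/-Faslpr library and between 0.74 and 2.35 per Faslpr library.

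**Figure D2:**
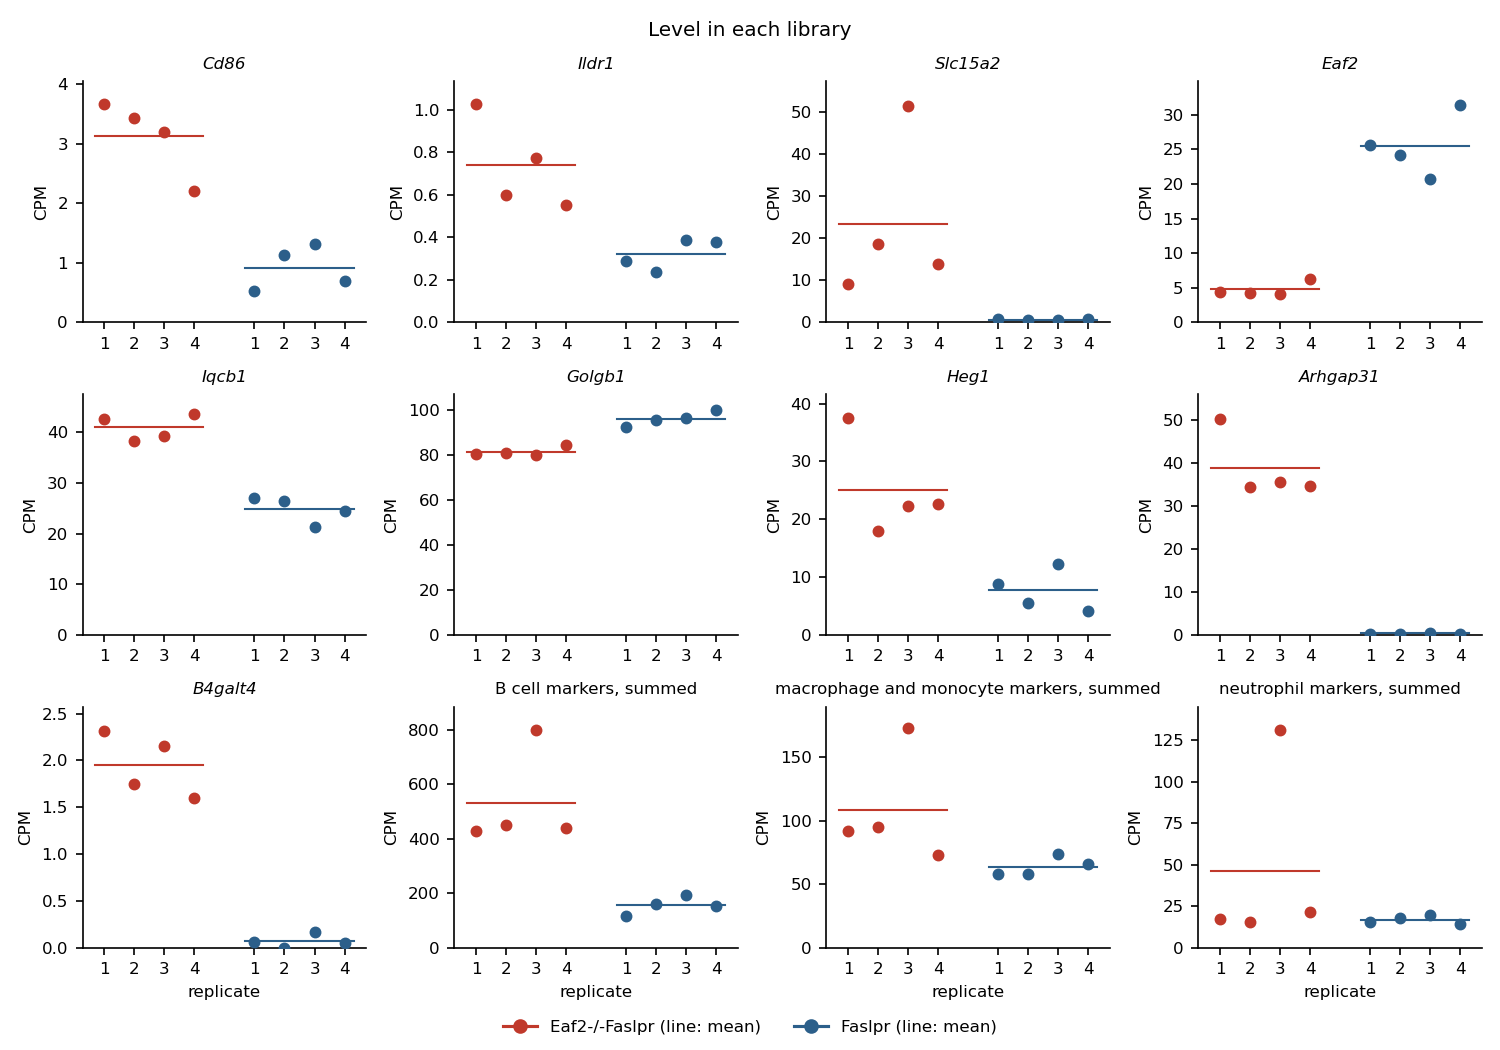
CPM in each of the 8 libraries (points) with group means (lines) for Eaf2, 8 of its neighbours and 3 summed lists of markers of other cell types, each panel on its own linear axis from 0. Arhgap31 and B4galt4 are near 0 in all 4 Faslpr libraries, and Slc15a2 and the marker sums are highest in Eaf2-/-Faslpr replicate 3.

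Iqcb1 and Golgb1 are the first 2 genes on the telomere side, and they moved in opposite directions. Iqcb1 (Entrez gene 320299), which encodes nephrocystin-5, a protein of the primary cilium, lies within the span of Eaf2 on the opposite strand, and the annotated exons of the pair share 0 bases (GENCODE M21). Iqcb1 was at 42.6, 38.3, 39.2 and 43.7 CPM in Eaf2-/-Faslpr cells and 27.0, 26.4, 21.3 and 24.4 CPM in Faslpr cells. The groups were tight and did not overlap, with a log2 fold change of 0.72 (SE 0.093, adjusted p = 0.000925), or 1.65-fold higher. In TPM, a unit that divides by gene length, Iqcb1 was at 30.8 ± 2.85 against 21.5 ± 1.97, a smaller ratio. The reason for that gap was not tested. The sources used here state neither the strand setting nor the annotation of the counting. With 0 exon bases shared in GENCODE M21, whether reads of this pair were mixed depends on the annotation used and was not tested. The mean of Iqcb1 was 16.2 CPM higher and that of Eaf2 20.8 CPM lower. Their summed level was 45.7 ± 3.46 against 50.3 ± 5.94 CPM, a difference that did not pass an exact two-sided permutation test (p = 0.229, smallest possible 0.0286). With 4 libraries per group this cannot show that the sums were equal, and CPM does not adjust for the unlike lengths of these genes. Nothing is read from the sum.

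Golgb1 (Entrez gene 224139) encodes giantin, a large membrane protein of the Golgi apparatus that tethers vesicles. It begins beyond the start of Eaf2 and runs the other way. It was at 80.6, 81.1, 79.9 and 84.4 CPM in Eaf2-/-Faslpr cells and 92.7, 95.6, 96.3 and 100 CPM in Faslpr cells. This was the smallest of the differences that passed, a level of 84.7% of Faslpr, found between groups whose coefficients of variation were 2.47% and 3.24%. The log2 fold change was -0.24 (SE 0.059, adjusted p = 0.0251). The call was lost without Eaf2-/-Faslpr replicate 1, 2 or 3 or Faslpr replicate 2 (adjusted p up to 0.0723), while the log2 fold change stayed between -0.26 and -0.22 in the fits that left out 1 library.

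Cd86 and Cd80 both lie in the region and encode the B7 ligands that engage CD28 and CTLA-4 on T cells. Cd86 (Entrez gene 12524) was at 3.66, 3.44, 3.2 and 2.21 CPM in the Eaf2-/-Faslpr libraries and 0.516, 1.13, 1.32 and 0.699 CPM in the Faslpr libraries. Its groups did not overlap (log2 fold change 1.76, SE 0.31, adjusted p = 0.00501). Cd80, on the other side and 21 places from Eaf2, was at 46.8, 25.3, 38.6 and 24.6 CPM and 28.8, 24.7, 34.4 and 31.3 CPM. These groups overlapped, and Cd80 did not pass (log2 fold change 0.18, SE 0.2, adjusted p = 0.651). Cd86 is also expressed by B cells and other antigen-presenting cells, and higher levels of 8 of 10 MHC class II genes (list median 1.62 on the log2 scale) went with those of the 17 B cell markers (2.0). The part of these cells in the Cd86 level was not tested. Without Eaf2-/-Faslpr replicate 3 the log2 fold change was 1.75. Leaving it out does not remove the B cell marker difference. Replicates 1, 2 and 4 had summed levels of 430, 452 and 441 CPM, against at most 192 CPM in any Faslpr library. Of 8 other CD28 and B7 family genes tested, 3 were higher and 1 was lower, where 7.14% of all genes were higher and 4.96% lower. Btla, itself on chromosome 16, had 204 ± 23.1 CPM as opposed to 86.0 ± 10.2 CPM, and Pdcd1 119 ± 7.88 against 179 ± 14.4 CPM. The ligand gene Icosl, named after its value was seen, was at 14.4 ± 6.12 against 2.78 ± 1.47 CPM (adjusted p = 0.00286).

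Ildr1 (Entrez gene 106347) lies between Cd86 and Slc15a2 and encodes angulin-2, a protein of cell contacts in epithelia. It was too low for the test, with 16, 11, 14 and 10 reads in the Eaf2-/-Faslpr libraries and 5, 4, 7 and 7 in the Faslpr libraries. Its levels did not overlap, from 0.552 to 1.03 CPM against 0.238 to 0.385 CPM. Without the filter on low counts its adjusted p was 0.0961 (log2 fold change 1.16).

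Heg1 (Entrez gene 77446) was the only gene on the far centromere side of the list that passed. It encodes a membrane protein of endothelial cells that binds the CCM complex. Its level was 37.6, 17.9, 22.3 and 22.6 CPM in Eaf2-/-Faslpr cells and 8.83, 5.48, 12.3 and 4.14 CPM in Faslpr cells. The log2 fold change was 1.7 (SE 0.33, adjusted p = 0.00815), and Eaf2-/-Faslpr replicate 1 was highest, as it was for Arhgap31. Of 4 stromal and endothelial markers tested, 2 were higher, Col1a1 (21.7 ± 4.8 against 9.37 ± 1.09 CPM) and Pecam1 (112 ± 5.41 against 61.7 ± 12.8 CPM). Col3a1 and Col1a2 did not pass, with log2 fold changes of -0.34 and -0.1. The endothelial genes Kdr and Cdh5 were too low to test, at 0.0712 and 0.177 CPM in Eaf2-/-Faslpr cells and 0.0 and 0.041 CPM in Faslpr cells. The summed level of that list, most of it Pecam1, ran from 129 to 149 CPM against 62.0 to 89.6 CPM, and its part in the Heg1 level was not tested.

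Per gene length, the region held genes of very different activity. Levels were compared in TPM, a unit that divides by gene length and scales every library to the same total. Hcls1, an actin-binding substrate of lymphocyte kinases, was the most abundant at 260 ± 20.3 against 248 ± 4.22 TPM, followed by the copper chaperone gene Cox17 at 153 ± 13.6 against 154 ± 35.7 TPM. Adprh, which removes ADP-ribose from arginine, was at 118 ± 7.87 against 110.0 ± 6.05 TPM, and the sorting nexin Snx4 at 105 ± 11.6 against 103 ± 15.6 TPM. In Faslpr cells Adprh, Snx4 and Fam162a (98.4 ± 8.81 TPM) followed each other in that order, with neighbours no farther apart than the larger of their SDs. In Eaf2-/-Faslpr cells Slc15a2 reached 16.7 ± 13.6 TPM and Arhgap31 11.5 ± 2.31 TPM, beside 17.1 ± 0.706 TPM for Golgb1, whereas in Faslpr cells they were at 0.42 ± 0.0707 and 0.102 ± 0.0472 TPM. At the bottom, Mylk and Sema5b were under 0.05 TPM in both groups.

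**Figure D3:**
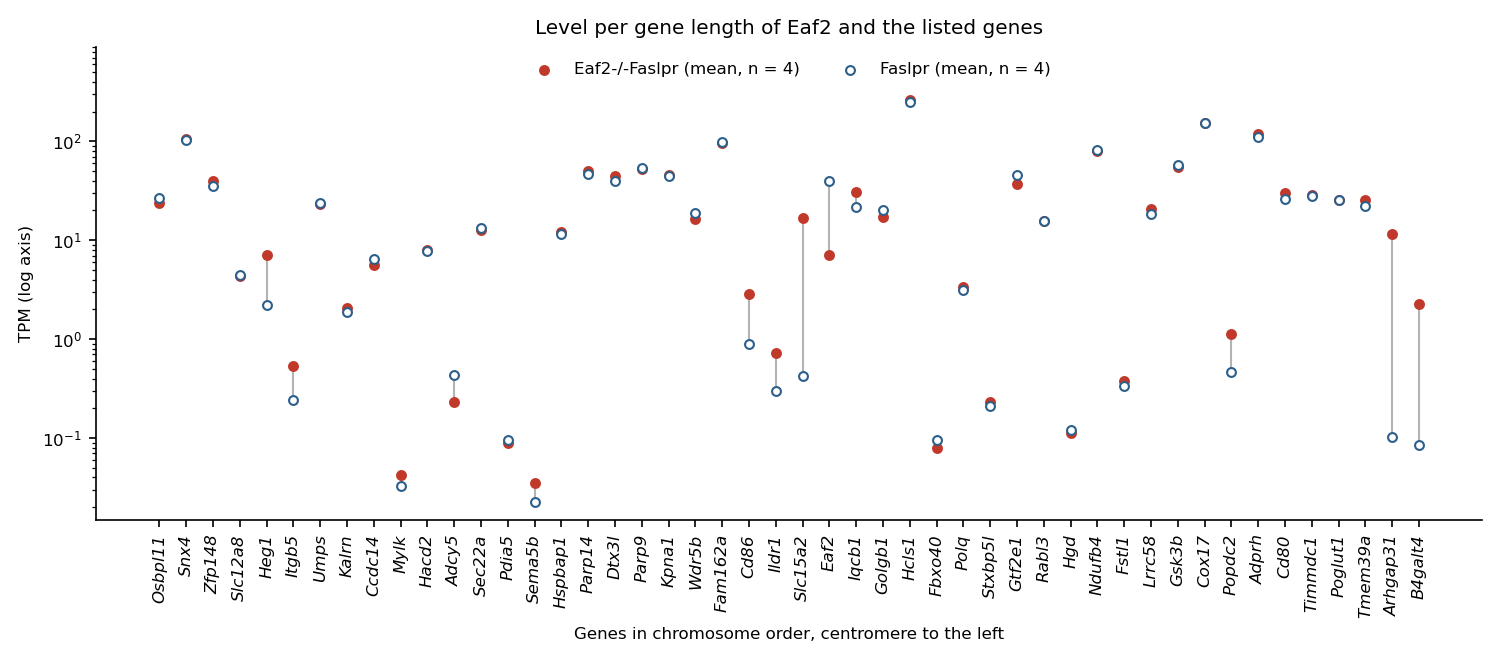
Mean TPM (log axis, n = 4 libraries per group) of Eaf2 and the 47 measured neighbours in chromosome order, Eaf2-/-Faslpr filled and Faslpr open, joined by a line. The 2 means lie close together for most genes and are far apart for Slc15a2, Arhgap31, B4galt4 and Eaf2. Smaller gaps are seen for Heg1 (7.12 against 2.19 TPM), Cd86 (2.85 against 0.883 TPM) and some genes of low level such as Popdc2 and Ildr1.

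Of the 33 tested neighbours that did not pass, 31 had log2 fold changes between -0.31 and 0.18, and the others were Popdc2 and Adcy5. The tested members nearest to Eaf2 that did not pass show this. Hcls1, the third gene beyond Eaf2, was at 234, 236, 203 and 226 CPM against 215, 210, 208 and 227 CPM (log2 fold change 0.06, SE 0.07). Polq, the gene of DNA polymerase theta, was at 14.3, 10.8, 9.7 and 11.3 CPM against 13.2, 10.1, 10.7 and 10.2 CPM. Stxbp5l, which encodes tomosyn-2, a regulator of vesicle fusion, was at 1.61, 0.983, 1.6 and 0.938 CPM against 1.72, 1.13, 0.991 and 0.861 CPM. In all 3 the groups overlapped.

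On the other side, the importin gene Kpna1 was at 103, 91.0, 89.9 and 98.1 CPM in Eaf2-/-Faslpr cells and 110, 88.7, 97.1 and 77.4 CPM in Faslpr cells (log2 fold change 0.03, SE 0.11). Wdr5b, a WD-repeat gene, was at 12.7, 13.3, 12.2 and 11.3 CPM against 12.3, 14.4, 12.2 and 18.8 CPM. Fam162a, a mitochondrial protein gene, was at 29.7, 24.5, 27.3 and 26.4 CPM against 25.7, 27.8, 23.7 and 32.7 CPM. These groups overlapped too, and the sign of the small Kpna1, Fam162a, Polq and Stxbp5l differences turned in some of the fits that left out 1 library.

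Closest to the threshold was Gtf2e1, which encodes the large subunit of the general transcription factor TFIIE. It was at 58.0, 48.3, 41.4 and 50.1 CPM against 68.0, 61.3, 59.9 and 56.4 CPM. The groups overlapped by 1 library, and the log2 fold change was -0.31 (SE 0.1, adjusted p = 0.0848). Popdc2, a cAMP-binding membrane protein gene, was at 1.48, 0.328, 1.6 and 0.828 CPM against 0.229, 0.357, 0.715 and 0.43 CPM (log2 fold change 1.26, SE 0.51, adjusted p = 0.153). Gtf2e1 passed without Eaf2-/-Faslpr replicate 1 and Popdc2 without Eaf2-/-Faslpr replicate 2.

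The ADP-ribosylation cluster of Parp14, Dtx3l and Parp9 lies 14 to 16 places from Eaf2 and is known as a set of interferon-responsive genes. Parp14 was at 161 ± 14.0 against 148 ± 17.6 CPM, Dtx3l at 99.8 ± 11.7 against 88.1 ± 19.1 CPM and Parp9 at 70.3 ± 8.47 against 71.3 ± 2.49 CPM. None of the 3 passed by edgeR, with adjusted p of 0.487, 0.517 and 0.915. Parp9 and Dtx3l overlap on opposite strands, and their annotated exons share 458 bases (GENCODE M21). With the strand setting not given, reads of this pair may have been mixed, which was not tested. Their sum was 170 ± 20.1 against 159 ± 20.5 CPM (exact two-sided permutation p = 0.486). With 4 libraries per group this cannot show that the sums were equal. Of 24 other interferon-stimulated genes tested, 3 were higher and 1 was lower, where 7.14% of all genes were higher and 4.96% lower. Their median log2 fold change was 0.13, against -0.0127 over all genes tested. Trim30a had the smallest p of them (214 ± 11.4 against 126 ± 11.5 CPM), followed by Ifi44 (4.43 ± 0.497 against 0.755 ± 0.372 CPM).

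The mitochondrial members gave flat values. Ndufb4, a subunit of respiratory complex I, was at 14.3 ± 1.41 against 14.6 ± 3.43 CPM. Timmdc1, an assembly factor of the same complex, was at 24.2 ± 2.58 against 23.8 ± 0.798 CPM. Cox17 was at 26.9 ± 2.89 against 27.5 ± 7.63 CPM. Of 26 other genes of complex I and its assembly, 0 passed by edgeR, DESeq2 or limma-voom, and 0 had an unadjusted p under 0.05. Gsk3b, the kinase of the WNT and AKT pathways, was likewise close, at 177 ± 19.0 against 181 ± 18.5 CPM.

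Besides Ildr1, the 6 listed genes with too few reads to test were Itgb5, Mylk, Pdia5, Sema5b, Fbxo40 and Hgd, with between 0 and 18 reads per library. Itgb5, an integrin subunit gene, had 17.0, 6.99, 18 and 4.0 reads against 2.0, 5.0, 6.0 and 5.0, and its groups overlapped. The 13 genes of the table that lie among the listed ones without being listed included 3 that were tested (Slc49a4, Ccdc58 and Gm10913). Of these 0 passed by edgeR, DESeq2 or limma-voom, and 0 had an unadjusted p under 0.05. This does not show that Gm10913 was unchanged. Its log2 fold change was 2.0 (SE 0.97, adjusted p = 0.241), with 2.57, 0.0, 1.82 and 0.718 CPM against 0.458, 0.179, 0.605 and 0.0 CPM.

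Going away from Eaf2 in blocks of 25 tested genes, the share that passed showed no steady fall. It was 12.0% in the first block toward the centromere and 20% in the first block toward the telomere. The following blocks held 16% and 20% toward the centromere and 20% and 8.0% toward the telomere. Blocks of this size do not show the order close to Eaf2. Of the 10 tested genes nearest to it 4 passed (40%), and of the nearest 20 the same 4 (20%). These were Cd86, Slc15a2, Iqcb1 and Golgb1, of which Cd86 and Slc15a2 needed the Eaf2-/-Faslpr libraries to reach the read filter. Nothing is read from the shares of such small sets. Among the 50 genes nearest to Eaf2, 8 passed (16%), among them Zbtb20, which is not listed, and over all 379 tested genes of chromosome 16 but Eaf2 10.6% passed, against 12.1% of all genes. By this share chromosome 16 ranked 15 of 20 chromosomes. Besides Slc15a2, Arhgap31 and B4galt4, 1 tested gene of chromosome 16 other than Eaf2 passed with a change of at least 4-fold. This was Hes1, 55 tested genes toward the centromere, at 1.26 against 0.296 CPM (adjusted p = 0.0282).

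**Figure D4:**
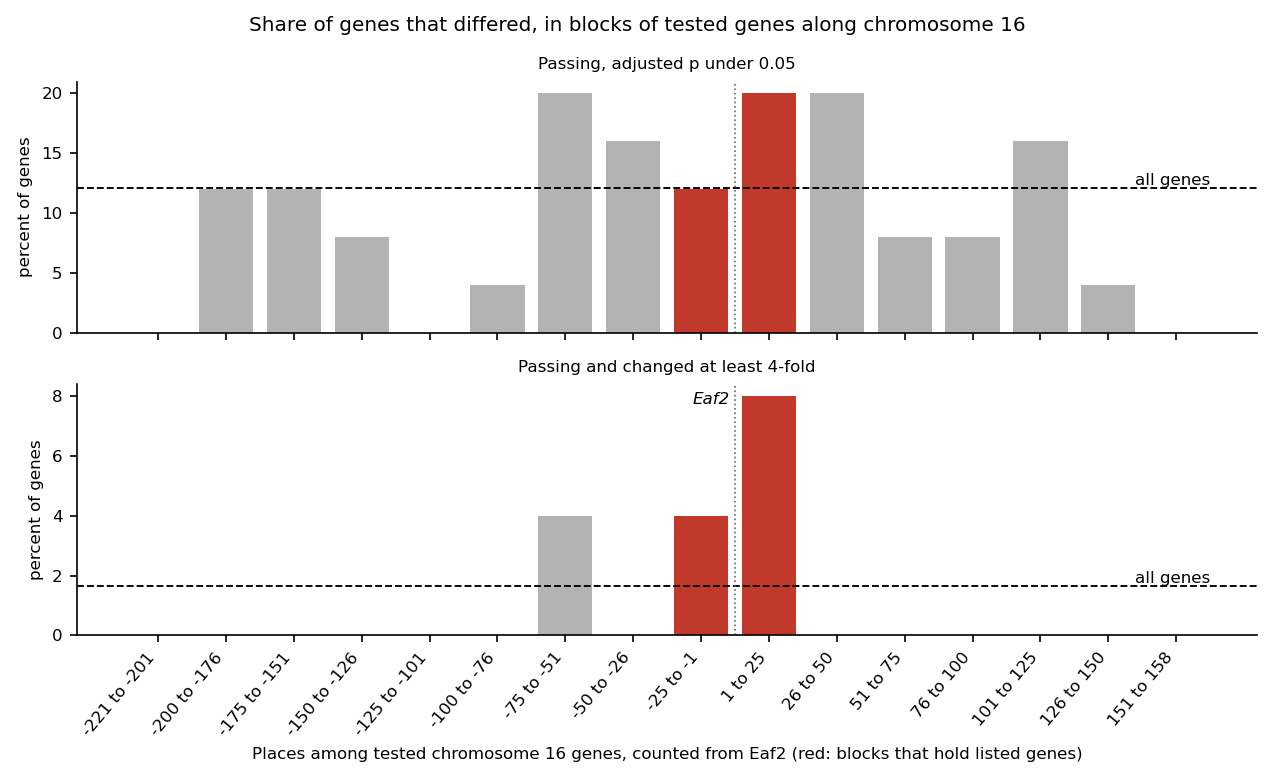
Percent of genes that passed (upper bars) and that passed with a change of at least 4-fold (lower bars) in blocks of up to 25 tested chromosome 16 genes counted from Eaf2, with dashed lines at the share over all genes. The blocks beside Eaf2 hold 12.0% and 20% in the upper bars and 4.0% and 8.0% in the lower bars. Nothing is read from the lower bars beside Eaf2, since Slc15a2, Arhgap31 and B4galt4 had few reads in Faslpr cells.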

How the data were processed

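The authors' deposited table gave TPM and, unscaled, RSEM estimated counts for each library. The submitters' processing notes name GRCm39, RSEM 1.3.1, Bowtie2 2.4.5 and HISAT2 2.2.1. Annotation, filters and strandedness: not given in the sources used here. A further 16 per-sample columns were not used. RSEM divides ambiguous reads by estimate, which makes overlapping genes uncertain.

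Counts were rounded, filtered with filterByExpr (12340 genes kept), TMM-scaled and tested with edgeR's quasi-likelihood test (edgeR 4.0.16, R 4.3.3) over all 8 libraries without covariates, with Benjamini-Hochberg adjustment and a threshold of 0.05. SE is the absolute log2 fold change over the square root of F. The script was tested on simulated data. DESeq2 1.42.0, limma-voom (limma 3.58.1), RLE factors, other filters, unrounded counts, a replicate block and leaving out libraries were tried.

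Gene order came from the RefSeq gene table (GRCm38.p6), which matched 17245 of 17384 genes. Its coordinates are given only for promoter sequences, since builds differ. The listed genes and gene lists were chosen with earlier results of these data known. Genes named in full were those that passed (up to 15), those without overlap and the 5 nearest tested members on each side; of chromosome 16 genes not listed, the 6 that passed with the largest change and a mean of at least 5 CPM; of each other list, up to 2 by smallest p. B4galt4, Slc15a2 and Iqcb1 promoters are printed, and the last was chosen after its values were seen. Others (Ildr1, Igsf11, Gtf2e1, Popdc2, Hes1, Cd80, Gsk3b, the untested and non-listed genes and the PARP and mitochondrial members) were named after their values were seen. One gene list is not reported here.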

Additional observations from a re-analysis of the deposited data

Results flagged for a closer look

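Single libraries lay far from the other 3 of their group in 6 of the 82 groups checked (40 flanking genes and Eaf2, in both genotypes), where chance alone flags about 1 in 20. Arhgap31 was at 50.4 CPM in Eaf2-/-Faslpr replicate 1 and between 34.4 and 35.7 CPM in the others, all far above the Faslpr libraries. Osbpl11, an oxysterol-binding protein gene, was at 40.3 CPM in Eaf2-/-Faslpr replicate 3 against 48.1 to 49.3 CPM. Parp9 was at 82.9 CPM in Eaf2-/-Faslpr replicate 1 against 64.6 to 67.5 CPM. Among Faslpr libraries, Fstl1 was at 0.63 CPM in replicate 1 against 0.477 to 0.495 CPM. Lrrc58 was at 53.0 CPM in replicate 4 against 71.7 to 75.3 CPM, and Tmem39a at 17.0 CPM in replicate 2 against 19.8 to 20.1 CPM.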

How the results depend on the processing

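Heg1, Cd86, Slc15a2, Iqcb1, Arhgap31 and Eaf2 kept their direction and passed in all 16 other settings, and B4galt4 in the 15 that tested it. Golgb1 lost its call in 6 of 16, so that 0 listed genes were lower without both replicates numbered 4. The same count was 0 with the replicate number as a block, and from 0 to 1 when 1 library was left out. Over all genes, leaving out 1 library gave 990 (without Faslpr replicate 2) to 1599 genes that passed. In those fits log2 fold changes ranged from -0.05 to 0.12 for Kpna1, -0.09 to 0.07 for Fam162a, -0.06 to 0.16 for Polq and -0.01 to 0.36 for Stxbp5l. Without both replicates numbered 4, Kpna1 was at -0.06 and Fam162a at 0.08. The replicate block gave 1425 genes against 1493. Same-numbered libraries had correlated deviations of 0.122, 0.169, 0.0656 and -0.0515, and not every library correlated best with its own number, so the numbers were not taken as pairs. Causes were not tested. Genes under about 1 CPM, such as Ildr1, had few reads, and whether more depth would change their results was not tested.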

Other observations

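Beyond the listed genes, the second block of 25 tested genes toward the telomere held 5 that passed, all higher in Eaf2-/-Faslpr cells. Cd96, a receptor of T and NK cells for nectin family ligands, rose by 1.54 on the log2 scale (SE 0.17, adjusted p = 0.000395), from 7.25 ± 1.05 to 21.1 ± 4.5 CPM (SD, n = 4), and Btla, an inhibitory receptor of lymphocytes, had a log2 fold change of 1.24 (SE 0.11, adjusted p = 8.21e-05). Cd200, Abhd10 and Plcxd2, named after their values were seen, had log2 fold changes of 0.61, 0.52 and 0.75. These genes lie 41 to 47 tested genes from Eaf2.

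Farther away, Ciita, the class II transactivator, rose from 6.01 ± 1.46 to 23.6 ± 3.18 CPM (adjusted p = 0.000111, 1.97 on the log2 scale), in libraries where 8 of 10 MHC class II genes including Ciita itself were higher. Klhl6, a gene of B cell receptor signalling, was at 120.0 ± 14.8 against 51.8 ± 15.5 CPM. The transcription factor gene Zbtb20, 22 tested genes beyond Eaf2, was at 92.5 ± 14.8 against 49.7 ± 11.3 CPM. P3h2, a collagen prolyl hydroxylase gene, was lower, at 3.33 ± 1.68 against 9.83 ± 4.9 CPM (adjusted p = 0.0371). The part of B cell transcripts in these values was not tested.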
